A study of Mus musculus with 72 samples.

Results

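The transcripts of 8 genes that bring fatty acids into cells, carry and activate them, and store or release them from lipid droplets were followed in mouse pancreatic islets: Lpl, Cd36, Fabp4, Fabp5, Acsl1, Plin2, Plin3 and Pnpla2. The genes were taken by symbol from the deposited expression table, which held all 8 among its 14604 genes. The animals were males of BALB/cJ, C57BL/6J and DBA/2J, all inbred, with an age of 8 weeks in the labels. They ate either regular chow (RC) or a diet high in fat (HFD), and islets were taken after 5, 13 or 33 days. The labels name no allele, transgene or drug, the 18 groups are defined by strain, diet and day, and RC of the same strain and day was the control of each HFD group. Islets were freed with Liberase, picked by hand and kept in medium overnight, and each library held RNA from a batch of islets of 1 mouse. Of 72 samples 69 had values, with 3 libraries in DBA/2J under HFD at day 13 and in DBA/2J and C57BL/6J under RC at day 33, and 4 in every other group.

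Lipoprotein lipase, the product of Lpl, is an extracellular enzyme that releases fatty acids from the triglycerides of circulating lipoproteins, and beta cells are known to make it. CD36 helps fatty acids across the plasma membrane, FABP4 and FABP5 bind them in the cytosol, and ACSL1 joins them to coenzyme A so that they can be oxidized or esterified. PLIN2 and PLIN3 coat lipid droplets, and PNPLA2, also called adipose triglyceride lipase, takes the first fatty acid off stored triglyceride. FABP4 and CD36 are abundant in adipocytes and in the endothelium of small vessels, CD36 is also found on macrophages, and several of the 8 genes are known targets of the fatty acid sensing PPAR receptors.

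All 8 are protein-coding genes, placed here on GRCm38 with GENCODE release 21. Lpl lies at chr8:68880491-68907448 and Acsl1 at chr8:46471037-46536051, both on the plus strand. Cd36 lies at chr5:17781690-17888801, Plin2 at chr4:86648386-86670060 and Plin3 at chr17:56277476-56292873, all on the minus strand, and Pnpla2 at chr7:141455198-141460743 on the plus strand. Fabp5 (chr3:10012548-10016607, plus strand) and Fabp4 (chr3:10204088-10208576, minus strand) both lie in the FABP cluster of chromosome 3, with 187480 bases between them. The annotation has a gene of unverified status, Gm45244, inside Acsl1 on the opposite strand, and the library preparation kept strand.

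The relatives within the set were compared to see whether a read of one could be counted for another. The coding sequences of Fabp4 and Fabp5 were identical at 251 of 398 aligned bases (63.1%), and those of Plin2 and Plin3 at 756 of 1225 (61.7%). The stretches below, from the longest coding transcript of each gene, hold the longest run of bases that each pair shares within its coding parts, in capitals. They start at coding base 85 of Fabp4, 91 of Fabp5, 191 of Plin2 and 230 of Plin3.
Fabp4: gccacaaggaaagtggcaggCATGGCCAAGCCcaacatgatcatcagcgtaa
Fabp5: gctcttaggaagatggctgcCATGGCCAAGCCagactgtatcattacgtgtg
Plin2: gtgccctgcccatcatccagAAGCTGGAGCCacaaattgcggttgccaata
Plin3: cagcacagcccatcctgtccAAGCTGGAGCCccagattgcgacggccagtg
The shared runs were 12 and 11 bases, against reads of 125 bases, so no error-free read could match both members of a pair. Windows of 125 bases of the longest coding transcript were also sought, on both strands, in the transcripts of all other annotated genes. None of the windows of Lpl, Cd36, Fabp4, Acsl1, Plin2, Plin3 or Pnpla2 was found there, while 55 of the 863 windows of Fabp5 (6.4%) also occurred in Gm6166, so the count of Fabp5 is the least certain of the 8.

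Promoters were looked up by symbol in a RefSeq table (GRCm38.p6), which gave 6 promoters for 5 of the 8 genes. Fabp4, Fabp5 and Lpl were not matched. The 250 bases before the start site of the table are shown for Plin2 (chr4:86670060-86670309, minus strand) and Cd36 (chr5:17835897-17836146, minus strand), because these were the 2 of the 6 promoters that held AGGTCA, the half-site that PPAR and other nuclear receptors bind. The window of Cd36 lies inside the span of the gene given above. Which start site islets use was not examined. Capitals mark matches on either strand to AGGTCA, to CCAAT and to GGGCGG, the GC box.
Plin2: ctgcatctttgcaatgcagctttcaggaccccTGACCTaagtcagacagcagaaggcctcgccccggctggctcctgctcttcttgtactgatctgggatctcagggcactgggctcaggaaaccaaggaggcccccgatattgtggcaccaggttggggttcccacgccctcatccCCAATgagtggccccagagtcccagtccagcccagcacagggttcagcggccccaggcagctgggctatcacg
Cd36: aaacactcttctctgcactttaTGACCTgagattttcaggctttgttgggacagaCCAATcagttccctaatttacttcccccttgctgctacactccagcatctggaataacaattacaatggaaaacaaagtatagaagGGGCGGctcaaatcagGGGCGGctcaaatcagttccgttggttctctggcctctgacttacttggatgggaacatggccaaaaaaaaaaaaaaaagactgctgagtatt
AGGTCA occurred in 16.3% of the 32851 promoters of the table over windows of 300 bases, 250 before and 50 after the start. CCAAT occurred in 37.4% of them and in 4 of the 6 promoters here, and GGGCGG in 35.7% and in 5 of the 6. TATAAA (13.6%) was in none of the 6, and neither was a direct repeat of AGGTCA with 1 base between (0.0396%). These matches describe the letters of the windows and are no evidence of binding in islets.

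Library depth, counted over the genes of the table, lay between 12292621 and 34591079 reads (median 22756199). Values are log2 CPM, the log2 of read counts scaled to one library size, and 1 unit is a doubling. The islet label fits the high level of the 8 beta-cell markers, Ins1 and Ins2 among them, which summed to 127279 to 270859 CPM. Markers of other cells were present in each library, the 14 endothelial markers at 645 to 1267 CPM, 12 of 13 macrophage markers at 95.3 to 351, 13 stellate cell and fibroblast markers at 225 to 1000, and 12 of 13 acinar markers at 295 to 44895. For adipocytes 2 of 11 markers, Lipe and Thrsp, had values (7.15 to 30.3 CPM in sum). The others, among them Adipoq and Plin1, had none and were not analysed here. The adipocyte mean or score below is thus that of Lipe and Thrsp alone. Lipe is also on the droplet and lipolysis list used below, so this mean is no measure of adipocytes by itself. In bulk islets fewer cells of a type and less RNA per cell cannot be told apart. A library was taken to stand apart when its mean over a marker list lay more than 4 scaled median absolute deviations from its strain's median, which held for 6 libraries. They were DBA/2J HFD day 33 replicate 1 (high in endothelial markers), C57BL/6J RC day 5 replicate 2 and RC day 33 replicate 4 (high in macrophage markers), C57BL/6J HFD day 13 replicate 4 (low in macrophage markers), and C57BL/6J HFD day 13 replicate 3 and DBA/2J RC day 5 replicate 4 (high in lymphocyte markers).

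Lpl had the highest level and Fabp5 the lowest. The mean over 69 libraries was 7.64 log2 CPM for Lpl, 5.22 for Pnpla2, 4.82 for Acsl1, 4.23 for Plin2, 3.64 for Fabp4, 3.01 for Plin3, 2.84 for Cd36 and 1.36 for Fabp5. The genes differ in length, so levels between genes were compared as CPM per kilobase of the longest coding transcript. On that scale Lpl stood at 50.1, Fabp4 at 18.6, Pnpla2 at 14.4, Plin2 at 10.1, Acsl1 at 7.33, Fabp5 at 2.69, Cd36 at 2.42 and Plin3 at 2.33. Lpl lay above 96.1% of the genes of the table in mean log2 CPM. Fabp5 rested on 21 to 106 reads per library and Lpl on 1427 to 10051.

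The 8 genes differed in what moved them. Strain held 79.8% of the sum of squares of Fabp4 over the 69 libraries, 61.3% of that of Plin3 and 46.2% of that of Lpl, but 10.1% to 23.0% in the other 5 genes. Diet and day within strain held the largest share in Acsl1 (48.3%), while libraries of the same group held 61.3% in Fabp5 and 49.4% to 50.4% in Pnpla2, Cd36 and Plin2.

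**Figure D1:**
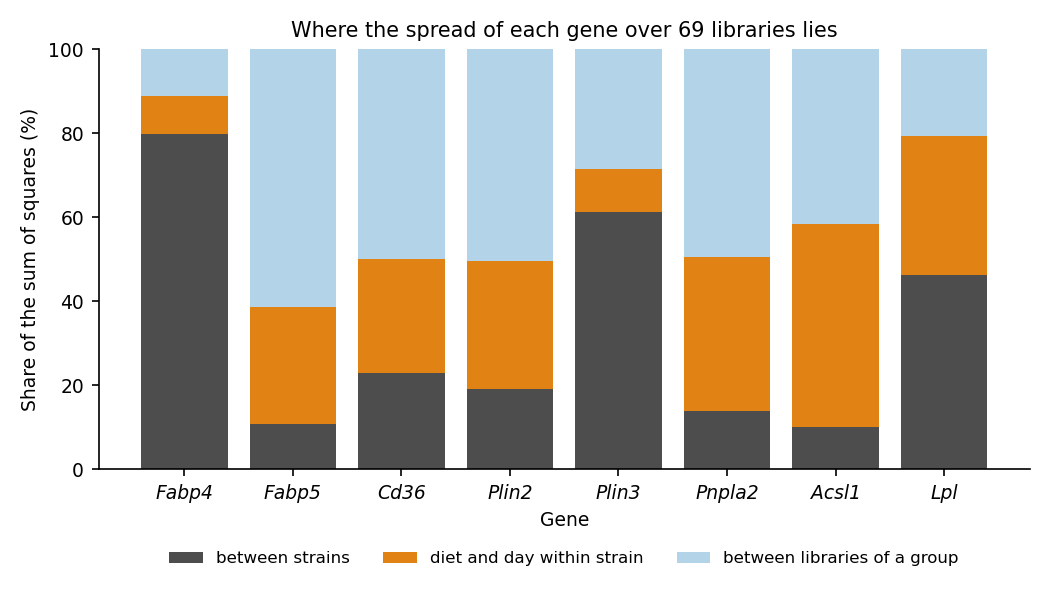
Bars give, for each of the 8 genes on the x axis, the percent of the sum of squares of log2 CPM over 69 libraries that lies between strains, between diet and day groups within a strain, and between libraries of one group. The strain part is 79.8% in Fabp4 and 10.1% in Acsl1, and the part between libraries of a group is 61.3% in Fabp5.

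Whether the diet changed the 8 genes was asked first over all strains and days. Under HFD 3 of the 8 genes rose and none fell, where 5.47% of all 14604 genes passed the same test. Fabp4 rose by 0.51 ± 0.10 log2 units (SE; 1.43-fold, adjusted p = 0.000961), Pnpla2 by 0.14 ± 0.04 (adjusted p = 0.0343) and Acsl1 by 0.11 ± 0.03 (adjusted p = 0.0434). The other 5 did not pass: Lpl -0.14 ± 0.05 (adjusted p = 0.0553), Cd36 0.30 ± 0.13 (0.171), Plin2 -0.09 ± 0.05 (0.297), Plin3 0.04 ± 0.07 (0.779) and Fabp5 -0.03 ± 0.08 (0.881). The median difference over the 8 genes was 0.08, against 0.00 over all genes. Within strains, 2 of the 8 genes fell in C57BL/6J (14.6% of all genes called), none was called in DBA/2J (0%) and none in BALB/cJ (0.151%). For DBA/2J limma called no gene, with 599 genes at an unadjusted p under 0.05, and voom on the recovered reads called 0 as well.

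**Figure D2:**
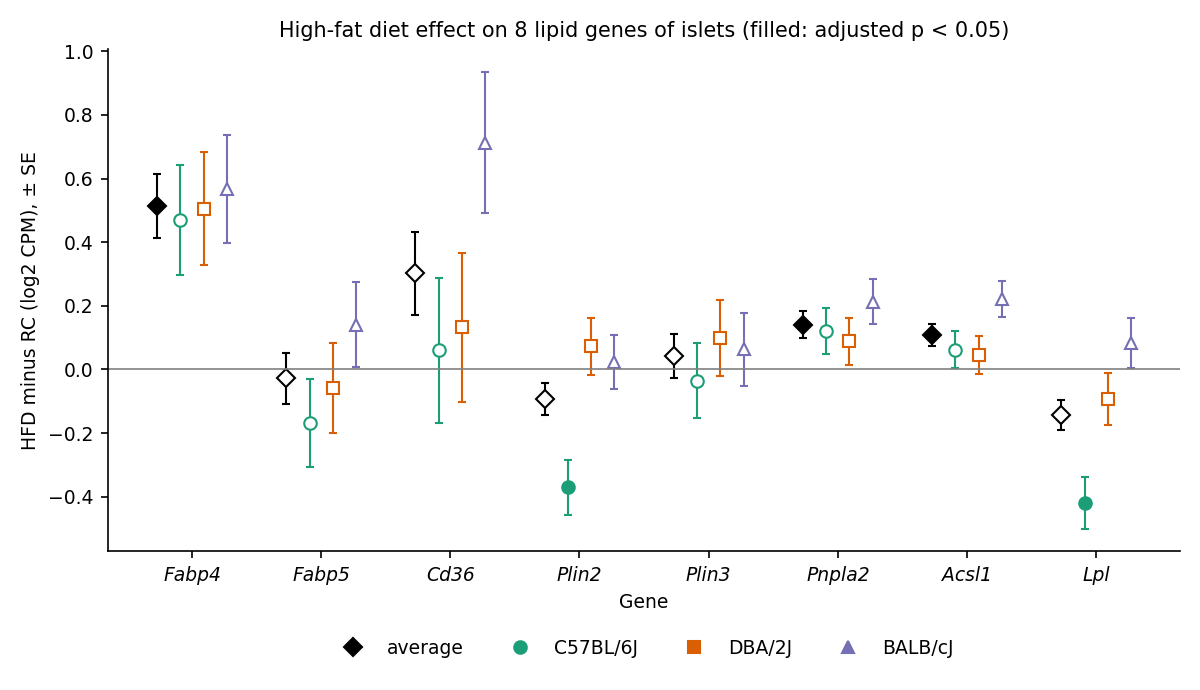
Points give the HFD minus RC difference in log2 CPM of each of the 8 genes, averaged over strains and days (diamonds) and within C57BL/6J (circles), DBA/2J (squares) and BALB/cJ (triangles), with standard errors. Filled points have an adjusted p under 0.05: Fabp4, Pnpla2 and Acsl1 in the average, and Lpl (-0.42) and Plin2 (-0.37) in C57BL/6J.

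Lpl, the triglyceride-releasing lipase, fell under HFD in C57BL/6J. At day 5 the 4 HFD libraries of this strain read 7.33, 7.34, 7.60 and 7.36 log2 CPM and the 4 RC libraries 8.08, 7.69, 8.04 and 8.08. At day 33 the HFD libraries read 7.65, 7.31, 7.31 and 7.51 and the 3 RC libraries 7.88, 7.91 and 7.98. At both days every HFD library lay below every RC library, where the diets were apart in either direction for 10.8% of all genes at day 5 and 8.73% at day 33. At day 13 the diets overlapped, with 7.73, 7.95, 7.73 and 8.11 under HFD against 8.00, 8.12, 8.09 and 8.17 under RC. Over the 3 days Lpl was 0.42 ± 0.08 log2 units lower, that is -0.42 or 0.747-fold (adjusted p = 0.000396), and it passed the test in each of the 23 refits that left out 1 library of the strain. By day, the fall passed at day 5 (-0.57 ± 0.14, adjusted p = 0.0179), while day 33 did not (-0.48 ± 0.15, adjusted p = 0.15). The day 5 call was lost without any one of 4 of the 8 libraries (adjusted p of 0.0571 to 0.0747 without HFD replicate 1, HFD replicate 4, RC replicate 1 or RC replicate 4). It was also lost with the number in the sample titles as a covariate (-0.55, adjusted p = 0.498). Without the whole of day 5 the difference over days was -0.35 (adjusted p = 0.0505).

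The response of Lpl differed between strains. In DBA/2J the difference was -0.09 ± 0.08, with HFD libraries from 7.22 to 8.17 (median 7.85) and RC libraries from 7.40 to 8.31 (median 7.89). In BALB/cJ it was 0.08 ± 0.08, with 6.83 to 7.67 (median 7.37) under HFD and 6.62 to 7.65 (median 7.34) under RC. At day 5 in DBA/2J the 4 HFD libraries (7.97, 8.17, 7.71 and 7.89) also lay below the 4 RC libraries (8.20, 8.18, 8.31 and 8.26), where 11.7% of all genes were apart, but that difference did not pass (-0.30 ± 0.14, adjusted p = 0.145). The HFD effect of BALB/cJ was 0.50 ± 0.11 above that of C57BL/6J (adjusted p = 0.023), and Lpl was the 1 of the 8 genes called there, with 1.27% of all genes. Of all genes 186 were called, 15 without C57BL/6J HFD day 33 replicate 2 and 514 without BALB/cJ RC day 13 replicate 4. The call of Lpl was lost without C57BL/6J HFD day 33 replicate 2 (0.49, adjusted p = 0.054), and without any one of the 3 days (0.42 to 0.66, adjusted p of 0.0529 to 0.193). It was also lost with macrophage and endothelial means as covariates (0.51, adjusted p = 0.0515) and with the number in the sample titles as one (0.50, adjusted p = 0.155). DBA/2J minus C57BL/6J gave 0.33 ± 0.12 for Lpl (adjusted p = 0.107), with none of the 8 genes called and 1.11% of all genes. BALB/cJ minus DBA/2J gave 0.18 ± 0.11, with no gene of the table called (0%; 472 genes at an unadjusted p under 0.05, and 0 by voom). These strain comparisons share libraries, so their values are given side by side and not as separate support.

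**Figure D3:**
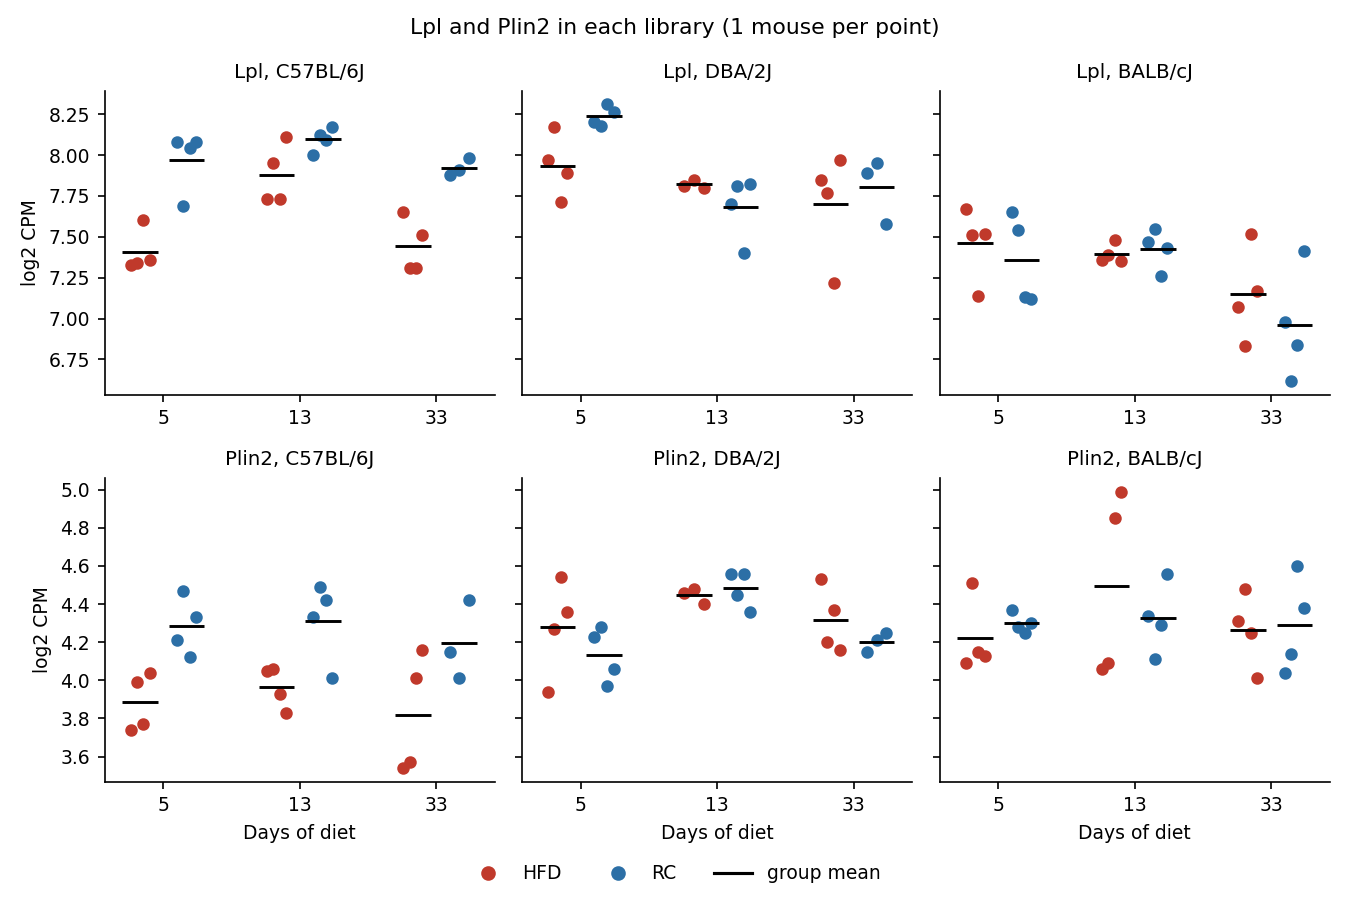
Each point is 1 library (1 mouse), with log2 CPM of Lpl (top) and Plin2 (bottom) on the y axis, days of diet on the x axis, HFD in red, RC in blue and group means as black lines, in 3 panels by strain. In C57BL/6J the HFD libraries of Lpl lie below the RC libraries at days 5 and 33, and those of Plin2 at day 5.

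Plin2, a lipid droplet coat gene, also fell in C57BL/6J. At day 5 its HFD libraries read 3.74, 3.99, 3.77 and 4.04 log2 CPM, all below the RC libraries at 4.21, 4.47, 4.12 and 4.33, where 10.8% of all genes were apart. The diets overlapped at day 13, with 4.05, 4.06, 3.93 and 3.83 under HFD and 4.33, 4.49, 4.42 and 4.01 under RC. They overlapped at day 33 too, with 3.54, 3.57, 4.01 and 4.16 against 4.15, 4.01 and 4.42. The mean was lower under HFD at each day (-0.39, -0.34 and -0.37), none past the test by day (adjusted p of 0.151 to 0.264). Over the days Plin2 was at -0.37 ± 0.09 or 0.773-fold (adjusted p = 0.00308), and this call held in 23 of 23 refits without 1 library. Some of these libraries were among the 6 of outlying marker levels. The RC libraries at 4.47 at day 5 and 4.42 at day 33, the highest of those days, were high in macrophage markers. The HFD library at 3.83, the lowest at day 13, was low in them. The call was lost without those 6 (-0.28, adjusted p = 0.0776) and without day 5 (-0.36, adjusted p = 0.0739). In DBA/2J (0.07 ± 0.09) and BALB/cJ (0.02 ± 0.09) Plin2 did not pass. The difference between strains in its HFD effect missed the threshold for DBA/2J minus C57BL/6J (0.44 ± 0.13, adjusted p = 0.0539) and for BALB/cJ minus C57BL/6J (0.39 ± 0.12, adjusted p = 0.0687).

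Other measurements moved with diet in C57BL/6J beside these falls. Of the 13 stellate cell and fibroblast markers 8 were lower under HFD in this strain (median -0.59), of the 14 endothelial markers 2 were lower, of the 12 macrophage markers 2 and of the 8 beta-cell markers 1, where 14.6% of all genes passed in either direction. With the stellate marker mean as a covariate Lpl stood at -0.46 (adjusted p = 0.00116) and Plin2 at -0.28 (adjusted p = 0.0417). With macrophage and endothelial means as covariates Lpl stood at -0.44 (adjusted p = 0.00151) and Plin2 at -0.29 (adjusted p = 0.0301). Each sample's title holds a number whose meaning the labels do not give, and at day 5 all C57BL/6J HFD libraries had lower numbers than all RC libraries, so number and diet cannot be told apart there. With the title number as a covariate Plin2 stood at -0.02 (adjusted p = 0.961) and Lpl at -0.42 (adjusted p = 0.0787), so both lost their calls, while Plin3 passed at -0.62 (adjusted p = 0.03). That covariate had a common slope over all strains, so these values also rest on libraries of DBA/2J and BALB/cJ. They are no measure of diet in C57BL/6J alone.

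Fabp4, the adipocyte and endothelial fatty acid binding protein, rose with HFD in the average over strains. Its HFD mean was above its RC mean in 8 of the 9 pairs of strain and day, and the difference was of like size in C57BL/6J (0.47 ± 0.17, adjusted p = 0.058), DBA/2J (0.51 ± 0.18, 0.999) and BALB/cJ (0.57 ± 0.17, 0.18), though none of the 3 passed alone. The strains differed in this effect by 0.04 to 0.10. The 95% confidence intervals of these differences reached from -0.46 to 0.58, so strain differences within that range were not excluded. The average passed the test in all 69 refits without 1 library (adjusted p up to 0.00219), but not without day 5 (0.40, adjusted p = 0.124).

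Single libraries of Fabp4 spread widely around these means. In C57BL/6J the HFD libraries spanned 2.15 to 2.94 (median 2.50) and the RC libraries 1.60 to 2.50 (median 2.18). In DBA/2J they spanned 3.59 to 5.27 (median 4.09) and 3.03 to 4.20 (median 3.66). At DBA/2J day 33 the HFD libraries read 5.27, 4.09, 4.10 and 4.20, all above the RC libraries at 3.12, 3.19 and 3.49, where 12.2% of all genes were apart, and the difference of 1.15 ± 0.32 did not pass (adjusted p = 0.311). The library at 5.27 is the one whose endothelial marker mean stood apart (6.00, strain median 5.36). Over all strains 2 of the 14 endothelial markers were lower under HFD and none higher, where 5.47% of all genes passed. With endothelial and macrophage means as covariates the average for Fabp4 was 0.54 (adjusted p = 0.00148), and with the mean of Lipe and Thrsp it was 0.47 (adjusted p = 0.000568).

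In BALB/cJ at day 5 Fabp4 rose by 1.23 ± 0.29 (adjusted p = 0.0415) and Acsl1 by 0.46 ± 0.10 (adjusted p = 0.0222), 2 of the 8 genes where 0.315% of all genes passed. Of all genes 46 were called, none without HFD replicate 1 and 356 without HFD replicate 4. The HFD libraries of Fabp4 read 6.11, 6.32, 4.42 and 4.54 and the RC libraries 4.35, 4.62, 3.61 and 3.87. The first 2 HFD libraries lay far above the rest, and the other 2 overlapped with RC. The call of Fabp4 was lost without HFD replicate 1 (0.98, adjusted p = 0.433), HFD replicate 2 (0.91, 0.346) and RC replicates 1, 3 or 4 (0.1 to 0.176). It was also lost when the strain was fitted alone (adjusted p = 0.375) and with the adipocyte marker mean as a covariate (0.91, adjusted p = 0.12). That marker mean, over Lipe and Thrsp alone, was 3.38 and 3.88 in the 2 HFD libraries high in Fabp4. It was 2.98 and 2.99 in the other 2 and 2.87 to 3.05 under RC. The acinar marker mean was 7.15 and 6.65 in the high pair, 11.49 and 10.65 in the other pair and 6.06 to 9.03 under RC. The stellate marker mean was 3.74 and 3.71 in the high pair, 4.6 and 4.69 in the other pair and 4.23 to 4.62 under RC. With the acinar mean as a covariate Fabp4 stood at 1.33 (adjusted p = 0.013) and with the stellate mean at 1.30 (adjusted p = 0.0322).

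Cd36, the fatty acid translocase, was high in the same 2 libraries. The BALB/cJ HFD day 5 libraries read 5.25, 4.76, 2.50 and 2.17 log2 CPM and the RC libraries 2.91, 2.75, 1.53 and 1.96, and the difference of 1.38 ± 0.38 did not pass (adjusted p = 0.0923). For Cd36 and Fabp4 alike, the 2 higher day 5 libraries of each diet had lower title numbers than the other 2. The part of that number in these values was not tested beyond the covariate fit. At BALB/cJ day 13 the values were 3.53, 3.47, 2.38 and 2.69 under HFD and 3.58, 3.20, 2.92 and 3.41 under RC, with the diets overlapping. At day 33 the HFD libraries (3.32, 3.49, 3.22 and 3.12) all lay above the RC libraries (2.10, 1.97, 2.67 and 2.36), where 4.02% of all genes were apart, a difference of 1.01 ± 0.38 that did not pass (adjusted p = 0.963).

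Over the days Cd36 stood at 0.71 ± 0.22 in BALB/cJ (1.64-fold, adjusted p = 0.196), at 0.06 ± 0.23 in C57BL/6J and at 0.13 ± 0.23 in DBA/2J. Without HFD day 5 replicate 4 Cd36 passed in BALB/cJ (0.88, adjusted p = 0.0406). The C57BL/6J RC day 33 libraries read 2.90, 3.05 and 4.47, and the library at 4.47 is the one whose macrophage marker mean stood apart (3.88, strain median 2.86). The DBA/2J HFD day 33 libraries read 3.90, 2.42, 1.96 and 2.49, and the one at 3.90 was the library high in Fabp4 and in endothelial markers.

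**Figure D4:**
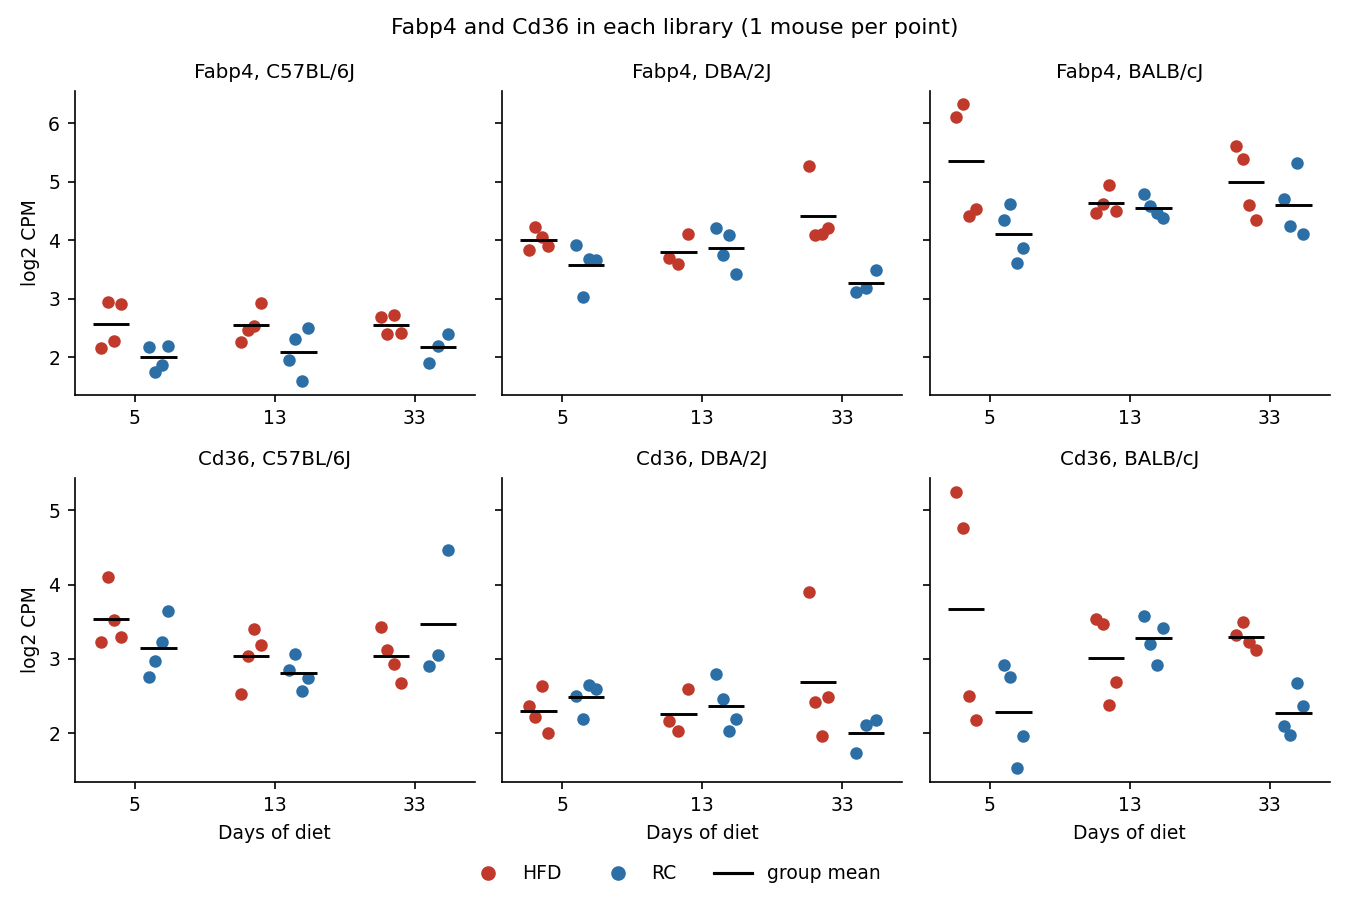
Each point is 1 library (1 mouse), with log2 CPM of Fabp4 (top) and Cd36 (bottom), days of diet on the x axis, HFD in red, RC in blue and group means as black lines, in 3 panels by strain. At BALB/cJ HFD day 5, 2 of the 4 points lie at 6.11 and 6.32 for Fabp4 and at 5.25 and 4.76 for Cd36, far above the other 2.

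Fabp4 and Cd36 varied together from mouse to mouse. After group means were subtracted, Pearson's r between them was 0.71 over 69 libraries, the highest of the 28 pairs of the 8 genes, while between the 18 group means it was -0.10. The value of 0.71 takes in libraries far above their groups in both genes. These are BALB/cJ HFD day 5 replicates 1 and 2 and DBA/2J HFD day 33 replicate 1, and r was not computed without them. Fabp4 and Plin3 were the reverse, with 0.28 within groups and 0.87 between group means. These are descriptions without a test, and libraries of a group share handling and day.

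Fabp5, the other fatty acid binding protein of the cluster, passed the test in none of the 25 comparisons. Its libraries ran from 0.59 to 1.73 under HFD (median 1.19) and from 0.91 to 1.73 under RC (median 1.26) in C57BL/6J, from 0.57 to 1.76 and 0.83 to 2.10 in DBA/2J, and from 0.94 to 1.77 and 0.34 to 1.90 in BALB/cJ. The diets overlapped in each of the 9 pairs of strain and day. The 95% confidence intervals of its HFD difference within the strains reached from -0.44 to 0.41, so changes within that range were not excluded.

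Acsl1, which activates fatty acids, rose by 0.11 in the average over strains, a call that was lost in 31 of 69 refits without 1 library (adjusted p up to 0.0731). It was lost without day 5 (0.07, adjusted p = 0.531), without day 33 (0.11, 0.174) and without the 6 outlying libraries (0.10, 0.145). It was also lost with the stellate mean (0.07, adjusted p = 0.293), the macrophage and endothelial means (0.10, 0.102), the adipocyte mean (0.10, 0.0602) or the title number (0.09, 0.224) as a covariate, and after quantile normalization (0.11, 0.0533). The largest part came from BALB/cJ (0.22 ± 0.06, adjusted p = 0.0847), against 0.06 ± 0.06 in C57BL/6J and 0.04 ± 0.06 in DBA/2J. At BALB/cJ day 5 the HFD libraries read 5.28, 5.43, 4.85 and 4.83 and the RC libraries 4.57, 4.54, 4.78 and 4.66, so the diets did not overlap, as for 5.05% of all genes. The higher 2 were those high in Fabp4 and Cd36. The day 5 call of Acsl1 was lost without HFD replicate 1 (0.40, adjusted p = 0.294), HFD replicate 2 (0.35, 0.246), RC replicate 1 (0.44, 0.108) or RC replicate 2 (0.43, 0.0707), with the adipocyte mean as a covariate (0.40, 0.0874) and with the strain fitted alone (0.46, 0.361). At DBA/2J day 33 the HFD libraries (5.02, 5.15, 5.00 and 5.06) also lay above the RC libraries (4.68, 4.89 and 4.90), where 12.2% of all genes were apart, a difference of 0.24 ± 0.11 that did not pass (adjusted p = 0.57).

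Pnpla2, the first lipase of the droplet, rose by 0.14 in the average, and the call was lost in 9 of 69 refits without 1 library (adjusted p up to 0.0697). It was lost without day 5 (0.09, adjusted p = 0.604), without day 13 (0.15, 0.0991) and without the 6 outlying libraries (0.14, 0.0917), and with the stellate mean (0.13, 0.142) or the title number (0.16, 0.0612) as a covariate. Its HFD mean was higher in 7 of the 9 pairs of strain and day. In BALB/cJ the HFD libraries read 5.58, 5.79, 5.35 and 5.25 at day 5 and 5.30, 5.40, 5.38 and 5.58 at day 13. The RC libraries read 5.17, 5.15, 5.19 and 4.97, and 5.15, 4.89, 5.23 and 4.98, so the diets did not overlap at either day, where 5.05% and 6.03% of all genes were apart. The differences, 0.38 ± 0.12 and 0.35 ± 0.12, did not pass (adjusted p = 0.157 and 0.228), and at day 33 the means were close (5.19, 5.00, 5.24 and 5.19 against 5.38, 5.25, 5.27 and 5.08). The strain differences over the days were 0.21 ± 0.07 in BALB/cJ, 0.12 ± 0.07 in C57BL/6J and 0.09 ± 0.07 in DBA/2J, none past the test.

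Plin3, the second droplet coat gene, did not pass for diet in any strain (-0.04 ± 0.12, 0.10 ± 0.12 and 0.06 ± 0.11 in C57BL/6J, DBA/2J and BALB/cJ), and the diets overlapped in each of the 9 pairs of strain and day. With the title number as a covariate it passed in C57BL/6J (-0.62, adjusted p = 0.03, against -0.04 without it). The slope of that covariate was common to all strains, so libraries of the other strains enter the -0.62. Without it the C57BL/6J diets differed by -0.15, 0.04 and 0.00 at days 5, 13 and 33. In BALB/cJ at day 5 the libraries read 3.72, 3.50, 2.97 and 2.82 under HFD and 3.74, 3.47, 2.86 and 2.73 under RC. At day 13 they read 3.95, 3.80, 2.98 and 3.05 under HFD and 3.27, 3.61, 3.65 and 2.87 under RC. The spread among mice on 1 diet was thus wider than the difference between the diets, and in 3 of these 4 groups it came as 2 high and 2 low libraries.

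Taken day by day, HFD called Lpl alone of the 8 genes in C57BL/6J at day 5 (1.87% of all genes), none at day 13 (1.04%) and none at day 33 (0%; 2180 genes at an unadjusted p under 0.05, and 11 by voom). In DBA/2J none was called at day 5 (0.548%), day 13 (0%; 599 genes at an unadjusted p under 0.05, 0 by voom) or day 33 (0.0205%). In BALB/cJ Fabp4 and Acsl1 were called at day 5, none at day 13 (0.00685%) and none at day 33 (0%; 669 genes at an unadjusted p under 0.05, 0 by voom). No change of the HFD effect between days 5 and 33 was called among the 8 genes in C57BL/6J (0.0205%), DBA/2J (0.0137%) or BALB/cJ (0%; 706 genes at an unadjusted p under 0.05, 0 by voom). In BALB/cJ 4 of the 8 had an unadjusted p under 0.05 for that change, all lower at day 33: Fabp4 (-0.84 ± 0.41), Fabp5 (-0.85 ± 0.33), Pnpla2 (-0.47 ± 0.17) and Acsl1 (-0.34 ± 0.14). These 4 share libraries and are not separate results. At HFD day 5 Fabp4, Pnpla2 and Acsl1 were all highest in replicates 1 and 2, and Fabp5 read 0.86 and 0.34 in RC day 5 replicates 3 and 4. The RC levels of days 33 and 5 differed in none of the 8 by the adjusted test in C57BL/6J (0.123%), DBA/2J (0.00685%) or BALB/cJ (0.00685%). The nearest was Acsl1 in C57BL/6J, at 4.49 to 4.67 at day 5 and 4.92 in all 3 libraries of day 33 (0.36 ± 0.11, adjusted p = 0.129).

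Between the strains, compared under RC, more genes of the whole table passed than between the diets. Between DBA/2J and C57BL/6J 4 of the 8 genes were called (54.5% of all genes), between BALB/cJ and C57BL/6J 4 (56.3%) and between BALB/cJ and DBA/2J 4 (35.0%), so these shares are near the background of the table. Fabp4 was called in all 3 comparisons. Its RC libraries spanned 1.60 to 2.50 in C57BL/6J (median 2.18), 3.03 to 4.20 in DBA/2J (median 3.66) and 3.61 to 5.31 in BALB/cJ (median 4.42). No C57BL/6J library reached the lowest library of either other strain, while DBA/2J and BALB/cJ overlapped. The share of all genes whose RC libraries were so apart between strains was not computed. Fabp4 was 2.33 ± 0.17 log2 units higher in BALB/cJ than in C57BL/6J (5.04-fold, adjusted p = 1.03e-17), 1.48 ± 0.18 higher in DBA/2J than in C57BL/6J (2.79-fold, adjusted p = 2.99e-10) and 0.85 ± 0.17 higher in BALB/cJ than in DBA/2J (adjusted p = 5.84e-05). The last of these was lost with the adipocyte marker mean as a covariate (0.18, adjusted p = 0.532). Among the 18 groups the 6 lowest means of Fabp4 were the 6 of C57BL/6J, from 2.00 in RC day 5, and 5 of the 6 highest were of BALB/cJ, up to 5.35 in HFD day 5. The largest step between neighbours in that order was 0.70, from C57BL/6J under HFD at day 5 up to DBA/2J under RC at day 33. Of the 17 steps 2 were larger than the SD of either neighbour.

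**Figure D5:**
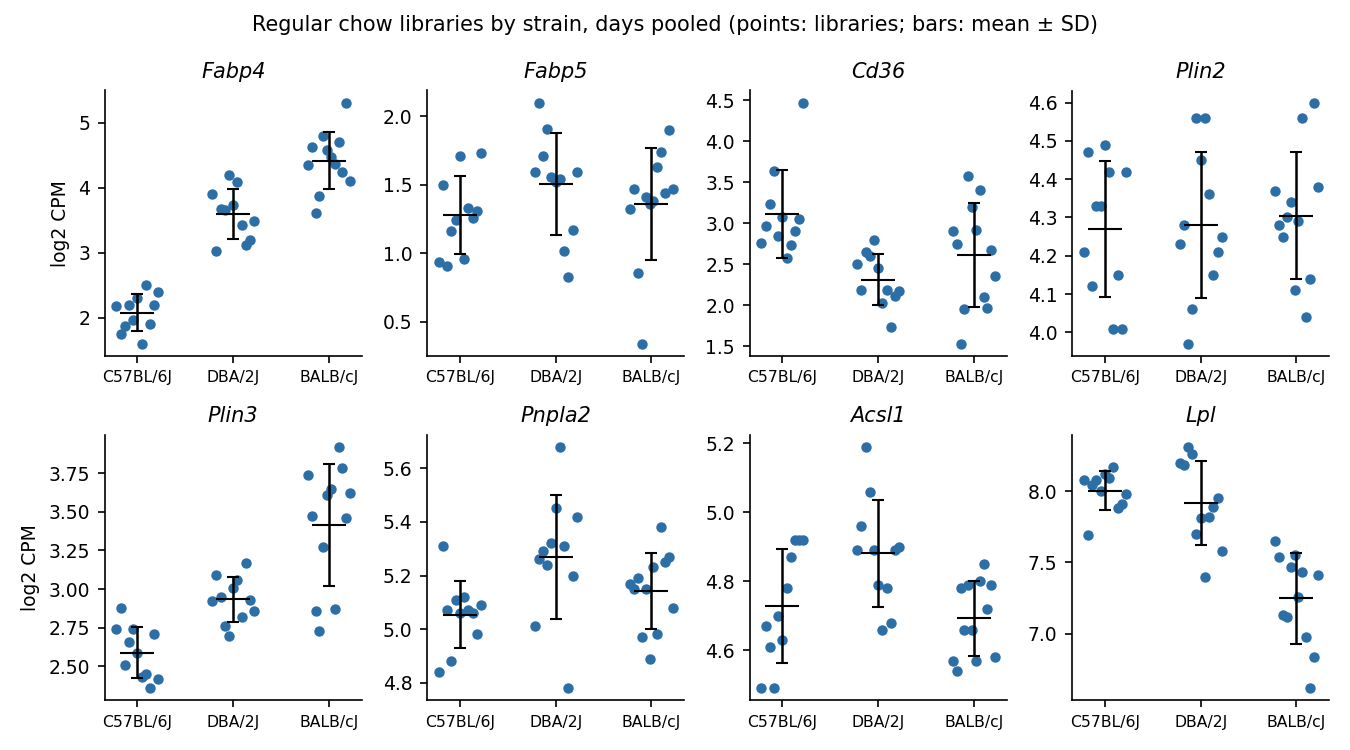
Panels give the 8 genes; each point is 1 RC library, with log2 CPM on the y axis (scaled per panel), strains on the x axis and days pooled, and bars give the mean ± SD of 11, 11 and 12 libraries. The C57BL/6J libraries of Fabp4 (1.60 to 2.50) lie below those of the other strains, and Plin2 overlaps in all 3 strains.

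Plin3 rose in the same order as Fabp4. Its RC libraries spanned 2.36 to 2.88 in C57BL/6J (median 2.59), 2.70 to 3.17 in DBA/2J (median 2.93) and 2.73 to 3.92 in BALB/cJ (median 3.54). It was 0.83 ± 0.12 higher in BALB/cJ than in C57BL/6J (1.78-fold, adjusted p = 2.2e-08), 0.36 ± 0.12 higher in DBA/2J than in C57BL/6J (adjusted p = 0.0102) and 0.47 ± 0.12 higher in BALB/cJ than in DBA/2J (adjusted p = 0.000923). With the title number as a covariate the DBA/2J difference from C57BL/6J turned to -0.12 (adjusted p = 0.542), and with macrophage and endothelial means it was 0.17 (adjusted p = 0.426). Without day 33 that call and the one between BALB/cJ and DBA/2J were lost (0.29, adjusted p = 0.119, and 0.36, adjusted p = 0.0725), and the latter was lost with the adipocyte marker mean (0.34, adjusted p = 0.105).

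Lpl ran the other way. Its RC libraries spanned 7.69 to 8.17 in C57BL/6J (median 8.04) and 7.40 to 8.31 in DBA/2J (median 7.89), but 6.62 to 7.65 in BALB/cJ (median 7.34), all below the lowest C57BL/6J library. How many of all genes were apart between these strains was not computed. Lpl in BALB/cJ stood at -0.75 ± 0.08 against C57BL/6J (0.596-fold, adjusted p = 9.32e-12) and at -0.66 ± 0.08 against DBA/2J (0.632-fold, adjusted p = 6.26e-10). DBA/2J minus C57BL/6J did not pass (-0.09 ± 0.08). Of the 18 group means of Lpl 5 of the 6 lowest were of BALB/cJ, from 6.96 in RC day 33, and the highest was 8.24 in DBA/2J RC day 5, with 2 of 17 steps above the SD of either neighbour.

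Cd36 was highest in C57BL/6J, with RC libraries from 2.57 to 4.47 (median 2.97), against 1.73 to 2.79 in DBA/2J (median 2.19) and 1.53 to 3.58 in BALB/cJ (median 2.71). It stood at -0.86 ± 0.23 in DBA/2J (0.552-fold, adjusted p = 0.00167) and at -0.53 ± 0.23 in BALB/cJ (adjusted p = 0.0432) against C57BL/6J. The BALB/cJ call was lost in 11 of 23 refits without 1 library and stood at -0.36 (adjusted p = 0.182) without the C57BL/6J RC day 33 library of high macrophage markers. Of 17 alternative settings it held in 9 (adjusted p up to 0.596 over the 17). The DBA/2J call was lost with macrophage and endothelial means as covariates (-0.66, adjusted p = 0.0973) and without day 33 (-0.55, adjusted p = 0.0937). Pnpla2 was 0.21 ± 0.07 higher in DBA/2J than in C57BL/6J (adjusted p = 0.0163), which was lost without DBA/2J RC day 33 replicate 3 (0.16, adjusted p = 0.0738) and without day 13 (0.13, adjusted p = 0.291). Acsl1 in BALB/cJ stood at -0.18 ± 0.06 against DBA/2J (adjusted p = 0.0108), with libraries from 4.54 to 4.85 and from 4.66 to 5.19, and this was lost without day 5 (-0.08, adjusted p = 0.379). That call was also lost with the title number (-0.13, adjusted p = 0.198) or the stellate mean (-0.13, adjusted p = 0.0896) as a covariate. Plin2 and Fabp5 passed in none of the 3 strain comparisons under RC, and the 95% confidence intervals of Plin2 reached from -0.17 to 0.22. In the order of the 18 group means, Plin2 had 1 of 17 steps above the SD of either neighbour, and Cd36, Fabp5, Plin3, Pnpla2 and Acsl1 had 0.

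Marker lists of other cells differed between strains under RC as well. Against C57BL/6J 54.5% of all genes passed in DBA/2J and 56.3% in BALB/cJ, in either direction. Of the 14 endothelial markers 10 were higher and 1 lower in DBA/2J and 9 higher in BALB/cJ (medians 0.30 and 0.49). Of the 12 macrophage markers 6 were lower in DBA/2J, and 4 lower and 1 higher in BALB/cJ. Of the 13 stellate cell markers 4 were higher in DBA/2J (median 0.20), and 11 higher and 1 lower in BALB/cJ (median 0.79). Of the 12 acinar markers 12 and 9 were higher. Lipe and Thrsp were both higher in BALB/cJ than in C57BL/6J (median 0.73) and than in DBA/2J (median 0.69). The part of each cell type in the strain differences was not tested beyond the covariate fits given.

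The neighbours of the 8 genes in the same pathways were given from lists that leave the 8 out. Over all strains and days, where 352 of all genes rose and 447 fell (5.47% together), HFD lowered 2 of the 21 measured genes of fatty acid transport, binding and activation and raised none: Fabp7, a fatty acid binding protein of low level in these islets (-0.66 ± 0.16, adjusted p = 0.00946), and Cav1, the caveolar coat gene (-0.20 ± 0.05, adjusted p = 0.0123). Of 25 genes of droplet coat, triglyceride synthesis and lipolysis 3 rose and none fell. They were Dgat2, which makes triglyceride (0.40 ± 0.10, adjusted p = 0.00971), Gpam, which starts glycerolipid synthesis (0.16 ± 0.05, adjusted p = 0.023), and Lpin3 (0.11 ± 0.04, adjusted p = 0.042). Of 14 partners of lipoprotein lipase and lipoprotein uptake genes, Pcsk6, a proprotein convertase, rose (0.18 ± 0.04, adjusted p = 0.00669). Gpihbp1, which anchors lipoprotein lipase in capillaries, stood at 0.18 ± 0.06 (adjusted p = 0.0574). Of 11 PPAR receptors and partners none passed, and of 20 further PPAR targets Acaa2, a mitochondrial thiolase, rose (0.22 ± 0.06, adjusted p = 0.028). Cpt1a, which admits fatty acids to mitochondria, stood at 0.22 ± 0.07 (adjusted p = 0.0615). The list medians ran from 0.02 to 0.07, against 0.00 over all genes.

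In C57BL/6J, where Lpl and Plin2 fell with 14.6% of all genes called (949 higher, 1176 lower), 1 of the 25 droplet and triglyceride genes rose and 5 fell. Dgat1, the other triglyceride-making enzyme, rose (0.27 ± 0.09, adjusted p = 0.0294). Lipa, the lysosomal acid lipase, fell by 0.25 (adjusted p = 0.00508) and Abhd5, the co-activator of PNPLA2, fell by 0.14 (adjusted p = 0.0369), and both are named here after their values were seen. Of the transport and activation genes 1 of 21 rose and 2 fell in this strain. None of 14 lipase partners and none of 20 PPAR targets passed, and 1 of 11 PPAR receptors and partners rose and 1 fell.

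Under RC the pathway lists differed between strains about as often as other genes. Between DBA/2J and C57BL/6J 13 of 21 transport genes passed (8 higher, 5 lower), 16 of 25 droplet genes (9 and 7) and 7 of 14 lipase partners (6 and 1). Between BALB/cJ and C57BL/6J these were 10 of 21 (5 and 5), 13 of 25 (9 and 4) and 9 of 14 (6 and 3). Acsm3, a medium-chain acyl-CoA synthetase gene, stood 4.44 ± 0.19 higher in DBA/2J and 4.92 ± 0.18 higher in BALB/cJ. Dgat2 was 2.65 ± 0.18 higher in DBA/2J and stood at -1.04 ± 0.17 in BALB/cJ against C57BL/6J. Gpihbp1, the capillary partner of Lpl, was 0.68 ± 0.10 higher in DBA/2J and 0.90 ± 0.10 higher in BALB/cJ, the strain with the lowest Lpl. The lipoprotein receptor genes Lrp8 (-2.36 ± 0.07) and Vldlr (-0.82 ± 0.09) were lower in BALB/cJ than in C57BL/6J, and so was Ppargc1a, a PPAR co-activator (-2.06 ± 0.14).

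The genes most like each member from mouse to mouse were found by Pearson's r of log2 CPM over 69 libraries after group means were subtracted, among 12575 genes. Pnpla2 had the closest, with Ucp2 (0.83), Cyb5r3 (0.83) and Por (0.82). Plin3 followed, with Cldn6 (0.75), Rtkn (0.75) and Inava (0.74), then Plin2 with Hs1bp3 (0.74), Ifngr2 (0.71) and Grn (0.68), and Acsl1 with Gpc4 (0.74), Gstm1 (0.68) and Frzb (0.68). Acer2 was closest to both Fabp4 (0.70) and Cd36 (0.70). Fabp4 was next followed by Lix1l (0.64) and Fzd4 (0.62), and Cd36 by Pygl (0.69) and Mgst1 (0.65). Fabp5 was closest to Slc11a1 (0.63), Aaas (0.57) and Capg (0.54), and Lpl to Meis2 (0.62), BC024063 (0.61) and Cltrn (0.60). Some pairs had the opposite sign between group means: between the 18 group means Fabp4 and Lix1l had an r of -0.80, and Plin3 and Inava one of -0.76. These are descriptions, picked as the highest of many, with no test.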

How the data were processed

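The authors deposited log2 CPM values, normalized between libraries, for 14604 genes and 69 libraries. Per the submitters' processing notes, STAR 2.5.3a, HTSeq 0.9.1, edgeR (no version given) and GRCm38 were used. Per the labels, libraries were stranded, poly(A)-selected and read as single ends of 125 bases. The 3 samples with no column in the table were not analysed here. Days were taken from the sample labels, since the series text repeats day 13 in place of day 33, and C56BL/6J in a label was taken to mean C57BL/6J. All libraries share a floor of -3.54 log2 CPM, which gave back whole reads, within 0.05 reads, for 100% of values.

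One mean per group was fitted to all genes with limma 3.58.1 in R 4.3.3 (lmFit, eBayes with trend), with contrasts for diet, strain and day. P-values are two-sided and adjusted by the Benjamini-Hochberg method over 14604 genes within each contrast, and "called" means an adjusted p under 0.05. A filter of log2 CPM above 0 in at least 4 libraries removed no gene. Values after ± are SE for differences. The spread behind each p-value is that between single mice. The fit was tested on simulated data. The planned count tests on recovered reads were not run. This was a choice made because the deposited unit is a log value, although whole reads could be recovered. Limma with voom weights on the recovered reads took the place of the count tests.

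The members and gene lists were chosen with earlier results of these data known. Named genes are the 8 members, the pathway genes called over all strains and days (otherwise the 3 of lowest p), the 3 of lowest p per list for strains under RC, and the 3 genes most like each member, leaving out predicted genes and pseudogenes. Alternatives are given in the closing section. Each covariate was fitted with a common slope over all strains, diets and days. Of these voom, leaving out libraries of outlying marker levels, and the title number as a block, were chosen after seeing the data. A grouping of the BALB/cJ libraries by title number was tried and dropped, because at day 5 its boundary followed the measured values. The numbers at day 5 run from 283 to 288 without a break, while those at day 13 have a break between 282 and 289. Replicate numbers follow accession order and pair nothing.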

Additional observations from a re-analysis of the deposited data

Results flagged for a closer look

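In 7 of 120 sets of 4 libraries (8 genes in 15 groups) 1 library stood apart from the other 3 by Dixon's criterion, which chance gives in about 1 of 20 sets. Lpl was high in C57BL/6J HFD day 5 replicate 3 (7.60 log2 CPM, the others 7.33 to 7.36) and low in C57BL/6J RC day 5 replicate 2 (7.69, the others 8.04 to 8.08), each toward the other diet. Acsl1 was high in DBA/2J HFD day 5 replicate 1 (5.20) and Pnpla2 low in DBA/2J RC day 5 replicate 1 (5.01). Fabp5 was low in DBA/2J RC day 13 replicate 4 (1.02), Plin2 high in BALB/cJ HFD day 5 replicate 2 (4.51) and Fabp4 high in DBA/2J HFD day 33 replicate 1 (5.27), the library whose endothelial marker mean also stood apart. The HFD effect on Lpl differed between BALB/cJ and C57BL/6J by 0.50 log2 units in the test of that difference (limma, adjusted p = 0.023).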

How the results depend on the processing

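Calls of the members depended on single settings as follows, each as a count of the 8 called. The planned edgeR and DESeq2 tests were not run. Over all strains and days (3 reported) the title number as a covariate left 1, the stellate score 1, leaving out day 5 0 and leaving out the outlying marker libraries 1. In C57BL/6J (2 reported) array weights gave 4, no day 5 0 and no outlying libraries 1. The title number gave 1 there, which was Plin3, while Lpl and Plin2 lost their calls. At BALB/cJ day 5 (2 reported) the adipocyte score and the strain fitted alone left 0. Array weights gave 2 in C57BL/6J at day 5 (1 reported), 2 in C57BL/6J at day 33 and in DBA/2J at days 5 and 33 (0 reported), 2 for the change of the DBA/2J effect from day 5 to 33 (0 reported), and 1 for the RC change over days in C57BL/6J and in DBA/2J (0 reported). The title number gave 1 for the RC change and for the change of the HFD effect over days in C57BL/6J (0 reported). For the difference of HFD effects between DBA/2J and C57BL/6J (0 reported) array weights gave 2, and log2(CPM + 1), genes with a mean log2 CPM above 1, the adipocyte score and the acinar score gave 1 each. For BALB/cJ against C57BL/6J (1 reported) array weights and the acinar score gave 2, and the title number, the macrophage and endothelial scores and leaving out day 5, 13 or 33 gave 0. Of the 4 RC calls between DBA/2J and C57BL/6J 1 (Fabp4) was left with macrophage and endothelial scores, and Plin3 turned to -0.12 there with the title number (adjusted p = 0.542).

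Leaving out 1 library at a time gave 1 to 4 members over all strains and days, 2 to 3 in C57BL/6J and 0 to 2 in BALB/cJ. It gave 0 to 1 in C57BL/6J at day 5 and at day 33 and in DBA/2J at day 5, and 0 to 4 in BALB/cJ at day 5. For the differences of HFD effects it gave 0 to 1 (DBA/2J minus C57BL/6J) and 0 to 2 (BALB/cJ minus C57BL/6J), and for RC 3 to 5 and 3 to 4 in the same order. Genes called over the whole table moved with single libraries too: from 578 to 1214 over all strains and days (799 reported), 10 to 58 in BALB/cJ (22), 61 to 319 in C57BL/6J at day 5 (1.87% of genes reported), 0 to 544 at day 13 (152) and 0 to 1134 at day 33 (0), 0 to 1657 in DBA/2J at day 5 (80), and 5 to 524 for DBA/2J minus C57BL/6J (162). Among all genes tested, 799 were called over all strains and days as reported. Settings that moved this by over 1.5 times gave 3051 (array weights), 444 (title number), 423 (macrophage and endothelial scores), 319 (stellate score), 20 (without day 5), 409 (without day 33) and 297 (without outlying libraries). In C57BL/6J 2125 genes were called as reported, and 4876 (array weights), 338 (title number), 1222 (macrophage and endothelial scores), 1193 (stellate score), 387 (without day 5), 739 (without day 13) and 902 (without outlying libraries) under such settings.

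Title numbers are shared across the diets by 21 pairs of libraries of one strain and day, and the labels do not say what a number marks. Deviations from group means over all genes correlated at -0.29 to 0.35 within these pairs (median 0.05), above 0.1 in 9 of 21. Of the 21 HFD libraries 8 correlated best with the RC library of their own number. These values do not show what a shared number marks. With the title number as a replicate block (consensus correlation 0.06) 914 genes were called over all strains and days and 2258 in C57BL/6J. Under the block Lpl passed in the average (-0.14, adjusted p = 0.0415), and 1 of the 8 genes, Plin2, passed for DBA/2J minus C57BL/6J (0.45, adjusted p = 0.0445; 253 genes in all). It changed no other call of a member.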
